A study of Mus musculus with 28 samples.

Results

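The genes described here are 48 immediate early, stress and NF-kB response genes, taken by symbol from the table of unique molecular identifier (UMI) counts of a bone marrow chimera study of mouse brain macrophages. All 48 are among the 14617 genes of the table, and all 48 passed the filter on low counts that 12327 genes passed. They were placed in 6 roles: 8 AP-1 and related basic leucine zipper factors, 12 other immediate early transcription regulators, 10 feedback and early effector genes, 5 heat shock and integrated stress response genes, 7 NF-kB subunits and inhibitors, and 6 inflammatory outputs.

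Recipients in every group were Cx3cr1 gfp/+ mice that had been lethally irradiated and then given marrow that was either Vav-Cre: hDNMT3A fl/fl (the mutant chimeras) or hDNMT3A fl/fl without Cre (the control chimeras). Vav-Cre recombines in blood-forming cells and their progeny, so only the donor-derived cells of the mutant chimeras carry the Cre, and host cells have the recipient genotype in both kinds of chimera. The labels call the allele a mutation and give no further detail of it. Brains were taken 16 weeks after transplantation. GFP separated host cells, which were positive, from donor-derived cells, which were negative, and both were sorted as microglia from the parenchyma and as macrophages from the leptomeninges, in bulk. Each kind of chimera gave 4 libraries of each of these populations except host leptomeningeal cells, of which it gave 2, so that there are 28 in all. Whether libraries of one group came from different animals is not stated, and p-values then reflect only library-to-library spread, which may be technical. Compartment and handling cannot be told apart: whole brains were digested for 40 minutes before the leptomeningeal cells were washed off, and the parenchyma was digested for a further 20 minutes and spun in Percoll. Actinomycin D, which blocks transcription, was added during the preparation of all samples.

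Immediate early genes are transcribed within minutes of a stimulus without new protein synthesis, and many encode transcription factors such as the Fos and Jun proteins, which pair to form AP-1. NF-kB dimers are held in the cytoplasm by inhibitor proteins, and their target genes include those same inhibitors, which end the response, as well as cytokines such as interleukin 1 beta. Heat shock factor drives the inducible chaperones, and enzymatic digestion of brain tissue is a known trigger of such programs in microglia, which is the usual reason for adding a transcription blocker.

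The response elements that give these programs their names can be seen in the promoters of some members whose values are given further on. The promoters printed here were picked because they hold a match. RefSeq promoters of build GRCm38.p6, reaching from 250 bases before to 50 bases after the start of transcription, were matched by symbol for 39 of the 48 members. The stretches are written 5′ to 3′ on the strand of the gene, without annotated exons, with the matched element in capitals. Nfkbia encodes the inhibitor IkB-alpha and Tnfaip3 the ubiquitin-editing inhibitor A20, and both are shown for the NF-kB site of an inhibitor that NF-kB itself induces. The Nfkbia stretch (chr12:55492648-55492897, minus strand) holds the site 29 to 20 bases before the start. The Tnfaip3 stretch (chr10:19015411-19015547, minus strand, 137 bases) holds one at 125 to 116 and another at 12 to 3 bases before the start. Ier3, an early gene that modulates survival (chr17:35821463-35821683, plus strand, 221 bases, ending 30 bases before the start), has the site 92 to 83 bases before the start.
Nfkbia: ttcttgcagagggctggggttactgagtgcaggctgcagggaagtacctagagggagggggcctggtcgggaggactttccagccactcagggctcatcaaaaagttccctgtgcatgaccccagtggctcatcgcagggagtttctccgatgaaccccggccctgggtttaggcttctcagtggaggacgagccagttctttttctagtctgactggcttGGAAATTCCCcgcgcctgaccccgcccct
Tnfaip3: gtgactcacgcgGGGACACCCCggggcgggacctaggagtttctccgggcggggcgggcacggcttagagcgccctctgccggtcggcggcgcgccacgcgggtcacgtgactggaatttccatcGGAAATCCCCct
Ier3: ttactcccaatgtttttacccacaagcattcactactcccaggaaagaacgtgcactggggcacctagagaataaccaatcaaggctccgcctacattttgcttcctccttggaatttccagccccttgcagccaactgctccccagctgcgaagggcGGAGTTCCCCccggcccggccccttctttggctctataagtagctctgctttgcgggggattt

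Dusp1, a phosphatase that switches off MAP kinases, is shown for its cyclic AMP response element, TGACGTCA, 143 to 136 bases before the start (chr17:26508520-26508722, minus strand, 203 bases, ending 48 bases before the start). Hspa1a (chr17:34972157-34972406, minus strand) and Hspa1b (chr17:34959239-34959488, minus strand) encode near-identical inducible HSP70 proteins. They are shown because their values parted between compartments while their promoters are almost equal: 247 of 250 bases match at the same place (98.8%), and both hold paired heat shock units 104 to 97 bases before the start.
Dusp1: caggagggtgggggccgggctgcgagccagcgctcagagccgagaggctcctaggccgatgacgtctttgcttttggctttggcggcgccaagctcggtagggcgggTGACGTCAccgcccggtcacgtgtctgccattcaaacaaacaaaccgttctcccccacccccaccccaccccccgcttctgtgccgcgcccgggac
Hspa1a: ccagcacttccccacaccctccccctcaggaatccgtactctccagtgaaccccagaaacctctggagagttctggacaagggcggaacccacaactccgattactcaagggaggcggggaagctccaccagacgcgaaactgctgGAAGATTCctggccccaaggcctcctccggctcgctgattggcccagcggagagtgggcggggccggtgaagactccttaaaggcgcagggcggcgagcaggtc
Hspa1b: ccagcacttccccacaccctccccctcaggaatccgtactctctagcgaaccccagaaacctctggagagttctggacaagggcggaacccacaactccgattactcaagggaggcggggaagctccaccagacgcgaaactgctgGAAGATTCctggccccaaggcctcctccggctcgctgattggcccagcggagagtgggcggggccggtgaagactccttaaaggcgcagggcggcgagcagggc

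Among the 39 members with a promoter, 13 (33.3%) held an NF-kB site on either strand, against 9.55% of 27025 genes: Fos, Fosb, Fosl2, Maff, Egr2, Nr4a1, Ier3, Hspa1a, Hspa1b, Nfkb2, Bcl3, Nfkbia and Tnfaip3. The cyclic AMP response element TGACGTCA was found in 3 (7.69% against 2.03% of all genes), namely Maff, Btg2 and Dusp1, and the CArG box of serum response factor in 3 (7.69% against 1.81%), namely Egr2, Dusp5 and Zfp36. An AP-1 site, TGANTCA, was present in 5 (12.8% against 8.97%), the EGR site GCGTGGGCG in 1 (2.56% against 0.707%), and paired heat shock units, GAANNTTC or TTCNNGAA, in 5 (12.8% against 17%). No NF-kB site was matched for Tnf, Il1b, Icam1 or Ptgs2, and no paired heat shock units for Dnajb1. Hspa1a and Hspa1b, with almost equal promoters, are counted as separate genes. These are matches of letters in a short window, given as a description.

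Library totals ranged from 479077 to 3066506 UMIs. Values are given as CPM, the usual scaling of a count by its library total, and since UMIs were counted without regard to transcript length, levels are compared between libraries and not between genes. The sorted cells carried the markers of their labels to different degrees: the 10 microglia markers took 2.00% to 2.54% of UMIs in host microglia and 0.585% to 0.842% in donor microglia, where Sall1, a factor of resident microglia, averaged 20.9 CPM in control and 13.3 CPM in mutant chimeras, against 345 and 324 CPM in host microglia. Border macrophage markers took 1.23% to 1.74% in host and 0.380% to 0.673% in donor leptomeningeal cells. The 14 neutrophil markers took 3.66% to 9.78% of UMIs in donor leptomeningeal cells, 0.202% to 0.600% in host leptomeningeal cells, 0.111% to 1.05% in donor microglia and 0.0591% to 0.153% in host microglia. The 9 astrocyte markers took 0.113% to 0.520% in donor microglia and at most 0.0206% elsewhere, and the 9 neuron markers 0.0344% to 0.187% against at most 0.00785%. All 14 neutrophil, 9 astrocyte and 9 neuron markers were detected in both donor populations, except that Gad1 was at 0 in the donor leptomeningeal libraries of mutant chimeras. Host leptomeningeal cells exceeded host microglia in monocyte markers (0.0381% to 0.0620% against 0.00193% to 0.00757%). The same held for T and NK cell and for fibroblast and mural markers, while endothelial and dendritic cell markers were lower. Monocyte markers took 0.305% to 0.689% in donor leptomeningeal cells. B cell markers took 0.246% in mutant host leptomeningeal library 2 and 0.0513% in library 1. No fit used these last markers, and their part was not tested. In these bulk samples fewer cells of a type and less RNA per cell cannot be told apart.

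Together the 48 genes took 0.569% to 0.651% of UMIs in host microglia, 0.576% to 0.743% in donor microglia and 0.807% to 1.07% in leptomeningeal cells of either origin, so every leptomeningeal library lay above every microglia library. The AP-1 factors went from 0.0859% to 0.119% of UMIs in host microglia to 0.230% to 0.300% in host leptomeningeal cells. NF-kB subunits and inhibitors went from 0.0625% to 0.0692% in host microglia to 0.102% to 0.110% in host and 0.125% to 0.143% in donor leptomeningeal cells. In 2 roles the summed share did not rise in both origins. Feedback and early effector genes, which include Rhob, described below, took 0.226% to 0.270% in host microglia and 0.211% to 0.249% in host leptomeningeal cells. In donor cells they took 0.165% to 0.224% in microglia and 0.150% to 0.218% in leptomeningeal cells. Heat shock and integrated stress response genes were lower in donor leptomeningeal cells (0.0719% to 0.0951%) than in donor microglia (0.0994% to 0.156%), without overlap. In host cells their share overlapped, at 0.0690% to 0.0920% in microglia and 0.0803% to 0.105% in leptomeningeal cells. Its mean was higher in the leptomeningeal cells of both kinds of chimera.

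**Figure D1:**
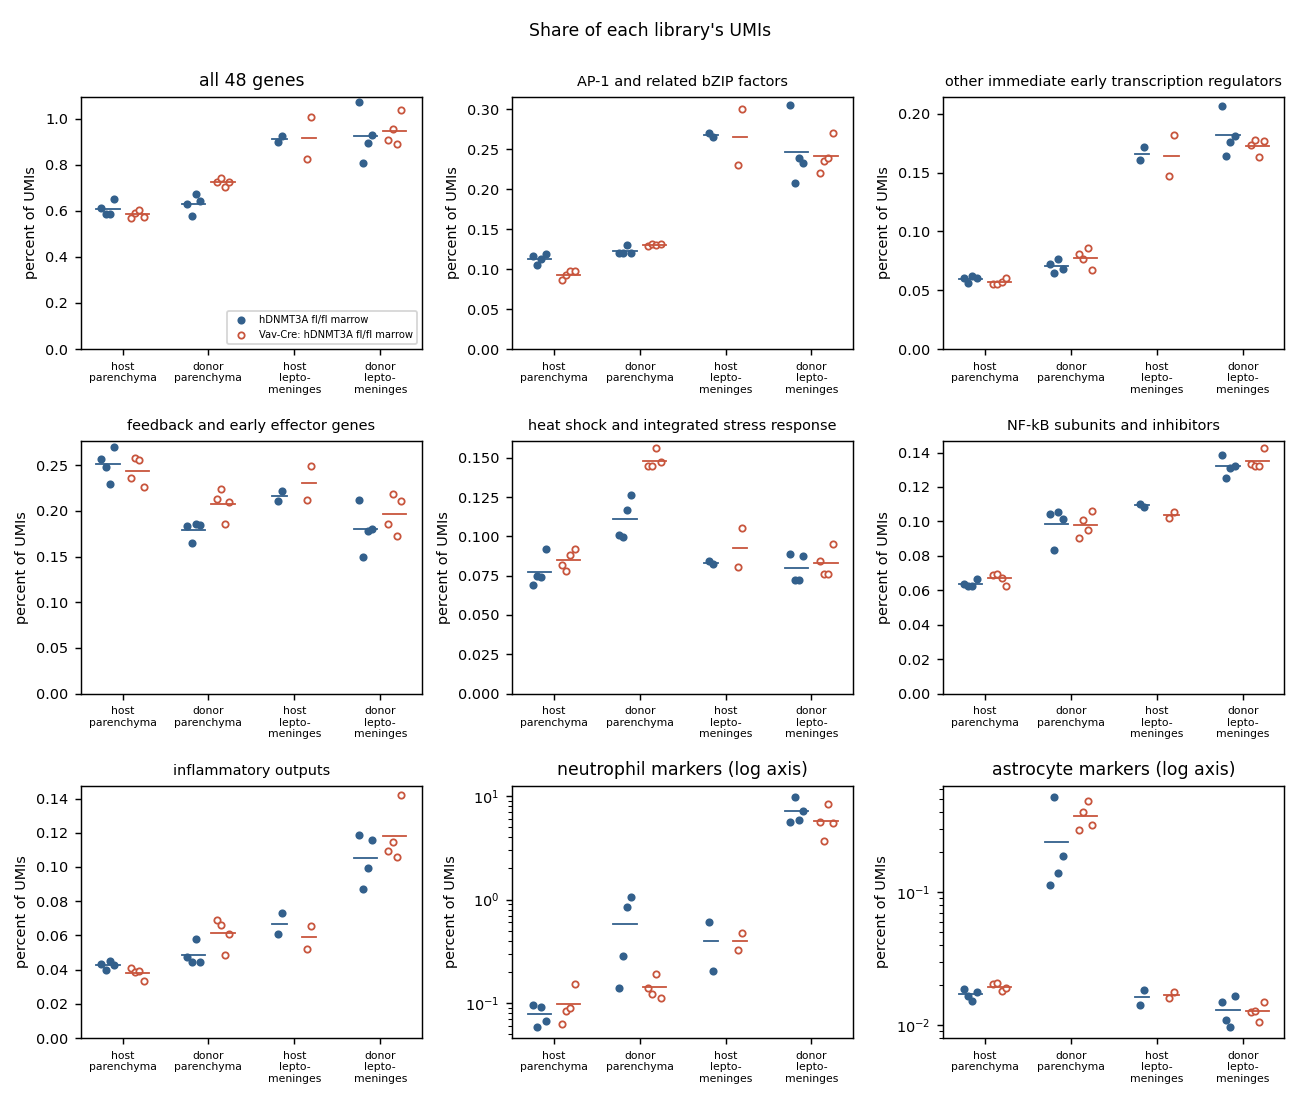
Percent of UMIs taken by the 48 genes together, by each of the 6 roles and by the neutrophil and astrocyte markers (log axis for the markers) in each of the 28 libraries, grouped by sorted population; filled points are control and open points mutant chimeras. The 48 genes took at most 0.743% in microglia and at least 0.807% in leptomeningeal cells, and the astrocyte markers were high in donor microglia alone.

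The first comparison set leptomeningeal cells against microglia of the same origin, first for host cells. Of the 48 genes, 38 were higher and 6 lower in host leptomeningeal cells by edgeR's quasi-likelihood test at an adjusted p under 0.05, where 31.1% of all 12327 genes were higher and 25.7% lower. The median difference of the members was 1.23 on the log2 scale, against 0.078 for all genes. For 33 members every leptomeningeal library lay above every microglia library, and for 5 below (18.3% and 24% of all genes). In donor cells 37 were higher and 4 lower (30.5% and 31.6% of all genes), with a median of 0.883 against -0.0328, and the libraries did not overlap for 22 higher and 3 lower members (10.3% and 15.4% of all genes). The 2 comparisons share no library.

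Of the 8 AP-1 factors, 7 were higher and none lower in each origin, with medians of 1.73 in host and 1.05 in donor cells. Fos, the best known AP-1 subunit, lay at 126, 151 and 204 CPM (lowest, median, highest) in the 8 host microglia libraries and at 903 and 752 CPM in the control and 791 and 1011 CPM in the mutant host leptomeningeal libraries. Every leptomeningeal value was above every microglia value, a difference of 2.62 ± 0.12 (log2, SE; adjusted p 8.27e-23). In donor cells Fos ran from 240 through 303 to 373 CPM in microglia and from 537 through 664 to 856 CPM in leptomeningeal cells, again without overlap, a difference of 1.35 ± 0.10 (adjusted p 4.51e-15). Fosb, a close relative of Fos, differed more. It lay at 16.0, 27.1 and 35.4 CPM in host microglia, and at 349, 362, 278 and 529 CPM in the 4 host leptomeningeal libraries. The difference was 4.01 ± 0.15 in host cells (adjusted p 3.09e-21) and 2.65 ± 0.14 in donor cells (adjusted p 1.6e-17), with no overlap in either. Atf3, a stress-induced repressor of the ATF family, had 51.6, 56.6 and 76.9 CPM in host microglia against 343, 382, 242 and 359 CPM in host leptomeningeal cells. It was higher by 2.61 ± 0.13 there (adjusted p 1.76e-20) and by 2.10 ± 0.12 in donor cells (adjusted p 2.79e-18). Jun, the partner of Fos, differed far less, by 0.26 ± 0.10 in host cells (adjusted p 0.0225) and 0.31 ± 0.09 in donor cells (adjusted p 0.00156), and its libraries overlapped. With scaling by library totals alone its mean levels were close. They were 356 CPM in host microglia and 377 CPM in host leptomeningeal cells, and 259 and 273 CPM in the donor populations.

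**Figure D2:**
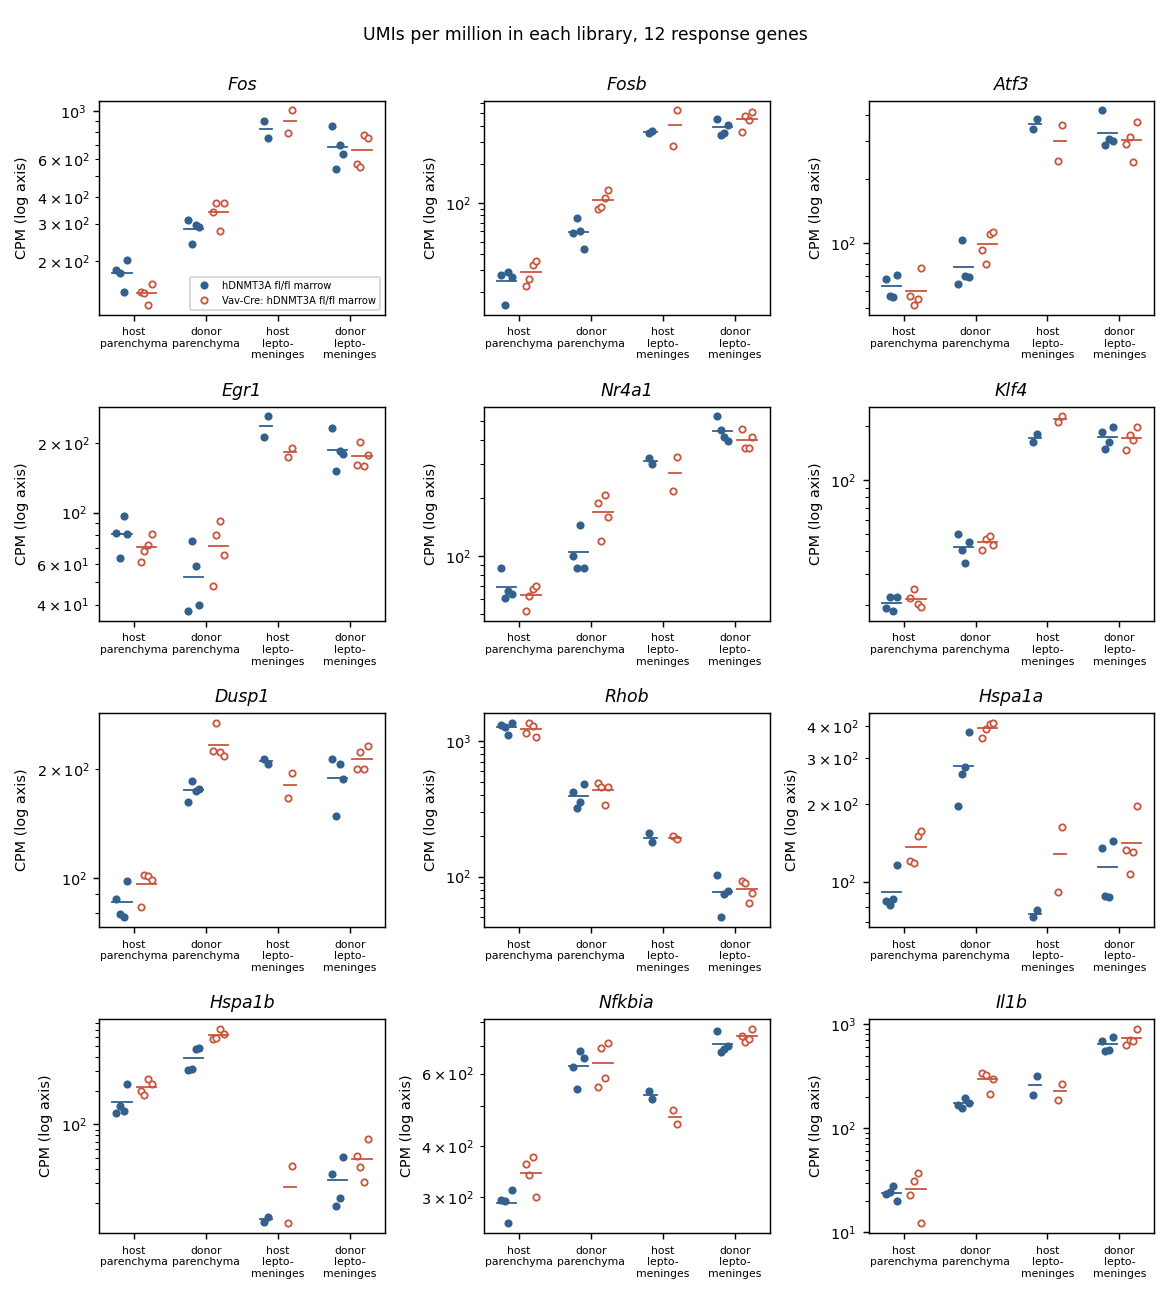
CPM (log axis) of 12 of the genes in every library of the 4 sorted populations; filled blue points are control chimeras, open red points mutant chimeras, and the short line is the mean of a group. Fosb lies between 16.0 and 35.4 CPM in host microglia and at 278 CPM or above in all leptomeningeal libraries, whereas Rhob and Hspa1b run the opposite way.

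Of the 12 other immediate early regulators, 11 were higher and none lower in each origin, with medians of 1.93 in host and 1.8 in donor cells. Egr1, a zinc finger factor of the early growth response family, lay at 61.5, 76.4 and 96.4 CPM in host microglia and at 212, 261, 174 and 191 CPM in host leptomeningeal cells, a difference of 1.64 ± 0.13 (adjusted p 6.58e-14). In donor cells it rose from 37.6, 62.4 and 92.4 to 151, 179 and 232 CPM, by 1.77 ± 0.13 (adjusted p 2.59e-15). The microglia and leptomeningeal libraries did not overlap in either origin. Its relative Egr2 had 3.39, 5.13 and 7.23 CPM in host microglia and 52.3, 58.1, 54.2 and 63.1 CPM in host leptomeningeal cells, and was higher by 3.60 ± 0.18 (adjusted p 6.28e-22). Klf4, a Krüppel-like factor of monocyte differentiation, had 18.6, 21.2 and 24.5 CPM in host microglia and 162, 179, 211 and 225 CPM in host leptomeningeal cells, the smallest adjusted p among the 48 genes (3.36 ± 0.11, adjusted p 1.7e-29). Both genes separated the compartments completely in host cells. Nr4a2, an orphan nuclear receptor, was higher by 4.16 ± 0.36 (adjusted p 1.27e-13), but the 8 host microglia libraries held 22 UMIs of it in all and 1 library none.

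Feedback genes split. In host cells 8 of 10 were higher and 2 lower (median 1.12), and in donor cells 6 were higher and 1 lower (median 0.401). Gadd45b, a stress sensor that is also induced by NF-kB, had 22.5, 27.98 and 33.5 CPM in host microglia against 187, 210, 162 and 233 CPM in host leptomeningeal cells. All leptomeningeal libraries were higher, by 3.02 ± 0.12 (adjusted p 6.48e-26), and in donor cells the difference was 1.83 ± 0.10 (adjusted p 2.55e-20). Rhob, a small GTPase that is also an early response gene, was the clearest exception. It had 1082, 1287 and 1374 CPM in host microglia and 208, 180, 199 and 189 CPM in host leptomeningeal cells. In donor cells it went from 322, 441 and 493 CPM in microglia to 50.2, 76.8 and 104 CPM in leptomeningeal cells. Neither pair of populations overlapped, and the differences were -2.50 ± 0.14 in host (adjusted p 3.72e-18) and -2.17 ± 0.11 in donor cells (adjusted p 2.13e-19). Dusp1, whose response element is printed above, went from 77.8, 92.7 and 102 CPM in host microglia to 214, 207, 167 and 195 CPM in host leptomeningeal cells (1.29 ± 0.10, adjusted p 4.31e-15), with no overlap. In donor cells its populations overlapped, at 163, 202 and 270 CPM in microglia and 148, 204 and 232 CPM in leptomeningeal cells, and the difference of 0.23 ± 0.09 (adjusted p 0.0174) became -0.013 when libraries were scaled by their totals.

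The heat shock genes went different ways. Hspa1b had 126, 191 and 257 CPM in host microglia and 13.5, 14.8, 13.1 and 42.0 CPM in host leptomeningeal cells. In donor cells it had 305, 530 and 717 CPM in microglia and 18.6, 38.7 and 73.6 CPM in leptomeningeal cells. No leptomeningeal library reached any microglia library of its origin, and the differences were -3.01 ± 0.34 in host (adjusted p 1.25e-07) and -3.40 ± 0.22 in donor cells (adjusted p 9.53e-12). Hspa1a, the other HSP70 gene, had 81.0, 117 and 157 CPM in host microglia and 72.9, 77.5, 91.4 and 163 CPM in host leptomeningeal cells, where its populations overlapped and the test was not passed. In donor cells Hspa1a was lower, by -1.14 ± 0.15 (adjusted p 2.28e-07), from 196, 369 and 412 CPM to 87.5, 131 and 196 CPM. The 2 transcripts share 65.5% of their words of 25 bases, but none within their last 300 bases, where a method that reads 3′ ends would tell them apart; how reads that fit both were counted is not stated in the labels. Hsp90aa1, the inducible HSP90, was higher in host leptomeningeal cells, with 154, 137, 156 and 183 CPM against 25.03, 39.4 and 62.7 CPM in host microglia, and did not overlap (2.08 ± 0.17).

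Of the 7 NF-kB genes, 5 were higher and 1 lower in each origin, with medians of 1.54 in host and 1.34 in donor cells. Nfkbiz, an atypical inhibitor family member that acts in the nucleus, had 8.54, 15.2 and 20.9 CPM in host microglia and 149, 148, 145 and 188 CPM in host leptomeningeal cells, higher by 3.55 ± 0.14 (adjusted p 6.48e-26). Nfkbia had 259, 306 and 376 CPM in host microglia and 545, 521, 488 and 451 CPM in host leptomeningeal cells, higher by 0.85 ± 0.09 (adjusted p 4.07e-11). Both were without overlap in host cells. Nfkb1, which encodes the p105 precursor of p50, ran the other way in host cells. It had 143, 180 and 195 CPM in host microglia against 80.0, 107, 95.4 and 86.8 CPM in host leptomeningeal cells, and fell by 0.76 ± 0.11 (adjusted p 1.25e-07). The lower gene in donor cells was Relb, with means of 50.5 CPM in donor microglia and 31.6 CPM in donor leptomeningeal cells. Tnfaip3 was higher by 1.54 in host and 1.34 in donor cells, and Nfkb2, the precursor of p52, by 1.61 and 1.44.

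Among the inflammatory outputs 4 of 6 were higher and 2 lower in host leptomeningeal cells, and 5 were higher and none lower in donor cells. Il1b, which encodes interleukin 1 beta, had 12.2, 23.9 and 37.4 CPM in host microglia and 208, 317, 187 and 269 CPM in host leptomeningeal cells. In donor cells it had 157, 205 and 341 CPM in microglia and 550.5, 694 and 905 CPM in leptomeningeal cells. Neither pair overlapped, and the differences were 3.49 ± 0.17 (adjusted p 5.99e-16) and 1.84 ± 0.14 (adjusted p 3.56e-12). Icam1, the adhesion molecule that binds leukocyte integrins, was lower in host leptomeningeal cells, by -0.91 ± 0.12 (adjusted p 9.75e-09), and higher in donor ones, by 0.58 ± 0.10. Il1a, the interleukin 1 alpha gene, was lower in host leptomeningeal cells by -1.24 ± 0.27.

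**Figure D3:**
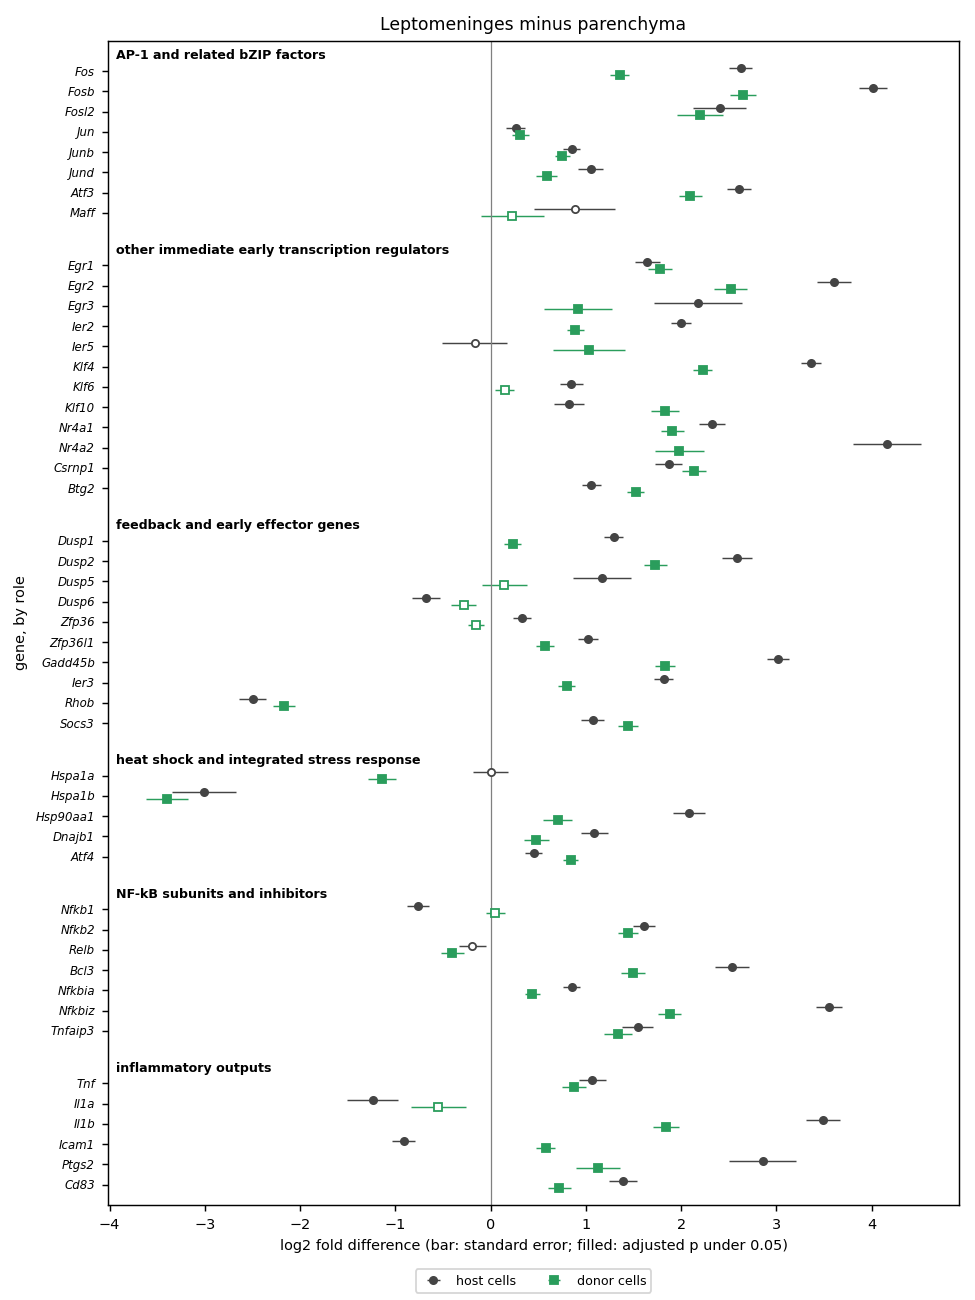
Leptomeninges minus parenchyma for each of the 48 genes by role, as log2 fold change with its standard error, in host cells and in donor cells; filled points passed the adjusted p of 0.05. Points lie mostly to the right of 0 (38 and 37 genes higher), with Rhob and Hspa1b far to the left in both origins.

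Genes of the same pathways from outside the set are given beside the shares of all genes, which were 31.1% higher and 25.7% lower in host and 30.5% and 31.6% in donor cells. Of 33 tested other immediate early genes, 22 were higher and 5 lower in host leptomeningeal cells (median 1.01), led by Ccn1 (7.99), Klf2 (1.42) and Crem (2.68), and 20 were higher and 7 lower in donor cells. Of 32 other NF-kB pathway genes 11 were higher and 3 lower in host cells (median 0.165), among them the inhibitor Nfkbid (2.16) and the adaptor Traf1 (3.22), and 15 and 3 in donor cells (median 0.327). Of 27 MAP kinase and serum response factor genes 5 were higher and 7 lower in host cells, and 11 higher and 3 lower in donor cells. Of 24 other chaperone genes 11 were higher and 5 lower in host cells, including Hspa8 (1.53) and Dnaja1 (1.45), and 8 higher and 7 lower in donor cells.

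The compartment difference in donor cells moved with other cell types: all leptomeningeal libraries were above the microglia libraries in neutrophil markers and all below them in astrocyte markers, with the shares given above. With the mean neutrophil marker level as a covariate 28 of the 41 calls held (median 1.04), and with that of the astrocyte and neuron markers, a fit added after the data had been seen, 10 held (median 0.758), among them Fosb, Atf3, Egr1, Klf4, Gadd45b, Nfkbiz and Rhob. In host cells 39 and 41 of the 44 calls held under the same covariates. The astrocyte and neuron marker shares overlapped between the 2 host populations, so the second covariate had little to adjust for there.

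The second comparison set donor-derived against host cells within a compartment. It uses the same libraries as the first, so its values are not independent of those above. In the parenchyma 33 of the 48 genes were higher and 9 lower in donor than in host microglia (33.1% and 27.3% of all genes), with a median of 0.738 against 0.0371 for all genes. In the leptomeninges 21 were higher and 6 lower in donor cells (16.9% and 13.3%), with a median of 0.297 against 0.0148.

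In the parenchyma the 2 interleukin 1 genes had the largest differences in either direction among the 48 genes. Il1b, at 157 to 341 CPM in donor and 12.2 to 37.4 CPM in host microglia, was higher by 3.37 ± 0.16 (adjusted p 1.88e-16). Ptgs2, the inducible cyclooxygenase, was higher by 2.84 ± 0.34 (adjusted p 8.71e-10), though the host microglia libraries held only 29 of its UMIs in all. Bcl3, an IkB family member that binds p50 and p52 in the nucleus, had 24.6, 28.6 and 48.01 CPM in donor and 4.60, 8.61 and 10.01 CPM in host microglia, and did not overlap (2.07 ± 0.17, adjusted p 1.69e-14). Nfkbia had 550.3, 639 and 714 CPM in donor microglia, above all host libraries, and was higher by 1.18 ± 0.08 (adjusted p 6.33e-18). Nfkbiz was higher by 1.85 ± 0.15 (adjusted p 1.2e-14). Nfkb1, Icam1 and Il1a were lower instead: Icam1 had 49.2, 91.2 and 106 CPM in donor and 175, 203 and 232 CPM in host microglia, with no overlap, and fell by 1.01 ± 0.10 (adjusted p 5.48e-12), Nfkb1 fell by 0.65 ± 0.09 (adjusted p 5.38e-08), and Il1a fell by 1.54 ± 0.24 (adjusted p 1.95e-06).

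Among the transcription regulators, Ier2, an early nuclear protein, had 137, 163 and 185 CPM in donor and 49.6, 66.3 and 83.6 CPM in host microglia (1.54 ± 0.10, adjusted p 1.82e-18). Fosb, Fos and Klf4 were higher by 1.74 ± 0.16, 1.14 ± 0.10 and 1.21 ± 0.12, each without overlap. Jun fell by 0.28 ± 0.09 (adjusted p 0.00409) while Fos and Fosb were higher. Egr1, high in leptomeningeal cells of both origins, gave -0.10 and did not pass. Of the feedback genes, Dusp1 (1.34 ± 0.09, adjusted p 1.26e-17), Gadd45b (1.85 ± 0.12, adjusted p 2.8e-18) and Dusp2, a nuclear phosphatase of MAP kinases (1.90 ± 0.16, adjusted p 2.56e-14), were higher without overlap. Rhob fell by 1.41 ± 0.10 (adjusted p 9.06e-15) and Dusp6, a phosphatase of ERK, fell by 0.79 ± 0.12 (adjusted p 3.7e-07), also without overlap. Both HSP70 genes were higher in donor microglia, Hspa1a by 1.74 ± 0.15 (adjusted p 1.6e-10) and Hspa1b by 1.601 ± 0.195 (adjusted p 2.95e-07), and none of their libraries overlapped.

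**Figure D4:**
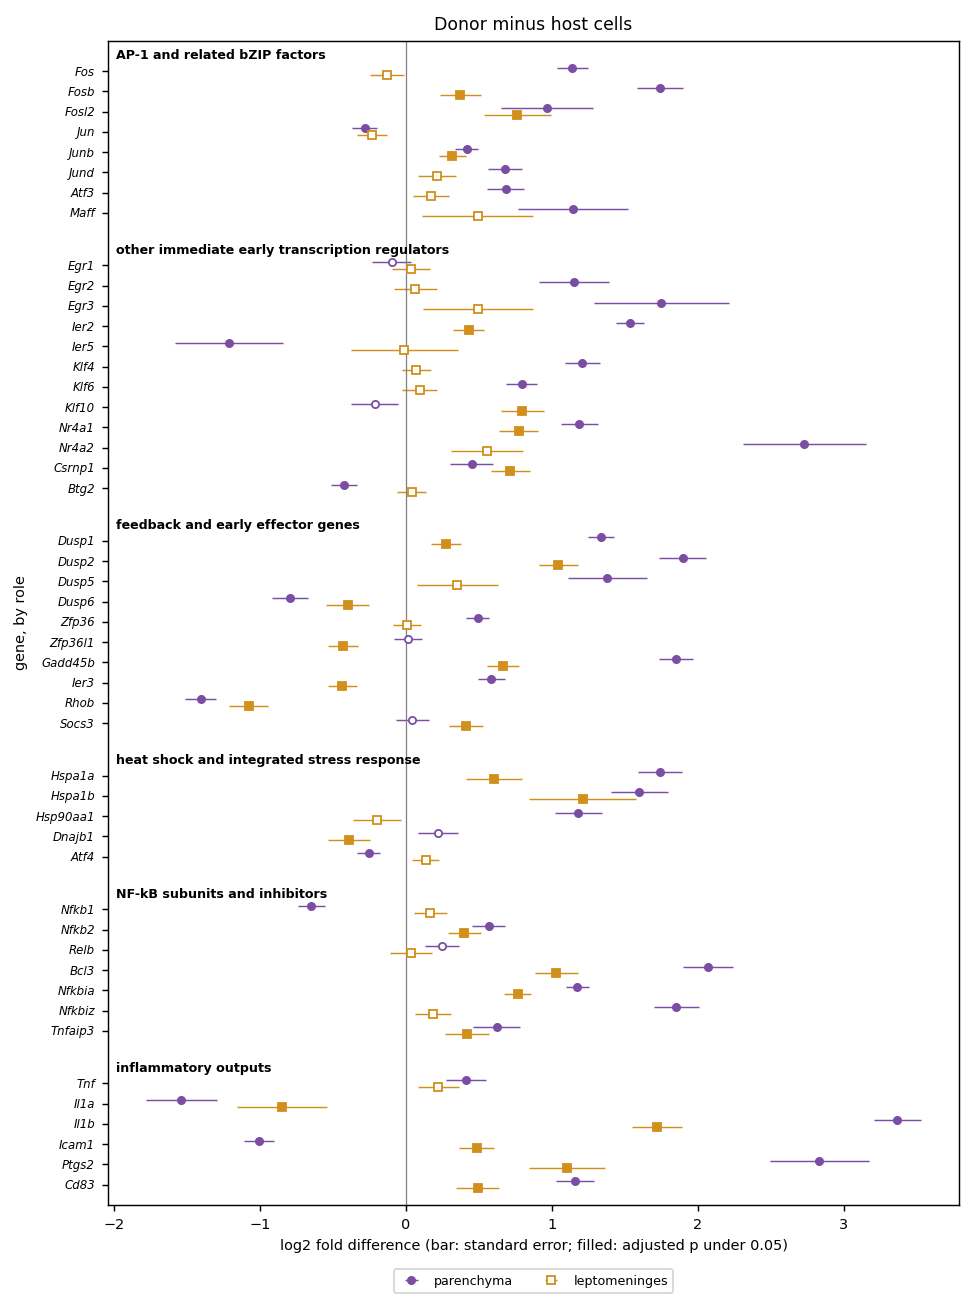
Donor minus host for each of the 48 genes by role, as log2 fold change with its standard error, in the parenchyma and in the leptomeninges; filled points passed the adjusted p of 0.05. Most parenchymal points lie further from 0 than the leptomeningeal ones, and Il1b is high (3.37 and 1.72) and Rhob low (-1.41 and -1.08) in both.

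All 9 astrocyte and all 9 neuron markers were also higher in donor than in host microglia, with medians of 7.82 and 5.04, and 10 of 14 neutrophil markers were higher and 1 lower (median 2.62). With the astrocyte and neuron markers as a covariate, added after the data had been seen, 6 of the 42 calls held (Ier2, Klf6, Bcl3, Nfkbia, Il1b and Ptgs2), with the median at 0.700; origin and these markers go together across the microglia libraries, and their part in the result was not tested further. The neutrophil covariate left 35 calls.

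In the leptomeninges the differences were smaller. Il1b, with 550.5, 694 and 905 CPM in donor and 208, 317, 187 and 269 CPM in host cells, was higher by 1.72 ± 0.17 (adjusted p 6.35e-09) without overlap. Bcl3 (1.03 ± 0.15, adjusted p 1.72e-07), Dusp2 (1.04 ± 0.14, adjusted p 2.41e-08), Nr4a1, an orphan nuclear receptor (0.77 ± 0.14, adjusted p 1.94e-05), and Nfkbia (0.77 ± 0.09, adjusted p 8.76e-09) were also higher without overlap. Klf10, a factor induced by transforming growth factor beta, was higher by 0.80 ± 0.15 (adjusted p 3.02e-05). Rhob fell by 1.08 ± 0.13 (adjusted p 1.95e-08) and Ier3 fell by 0.44 ± 0.10 (adjusted p 0.000584), both without overlap. Fos (-0.13, adjusted p 0.45) and Nfkbiz (0.18, adjusted p 0.278) did not pass. Of the 14 neutrophil markers 13 were higher in donor leptomeningeal cells, with a median of 4.27. With them as a covariate 3 of the 27 calls held (Dusp2, Nfkbia and Il1b), with the median at 0.264. The shares of these markers did not overlap between donor and host leptomeningeal libraries. The covariate therefore goes with origin, and the fit cannot tell the part of the 2 apart. Scaling by library totals gave 10 higher and 9 lower members in place of 21 and 6, with the median of all genes at -0.217. Without library 1 of the control, or library 1 of the mutant, host leptomeningeal cells, 18 members passed.

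The difference between the donor minus host values of the 2 compartments was tested in itself. By edgeR's quasi-likelihood test at an adjusted p under 0.05, it was below 0 for 25 of the 48 genes and above 0 for 5 (23.2% and 19.1% of all genes). The median over the members was -0.474, against -0.0488 for all genes. Nfkbiz (-1.67 ± 0.19, adjusted p 1.3e-09), Il1b (-1.65 ± 0.22, adjusted p 1e-06), Fosb (-1.37 ± 0.21, adjusted p 2.5e-06), Fos (-1.27 ± 0.16, adjusted p 9.76e-09) and Klf4 (-1.14 ± 0.15, adjusted p 4.6e-08) had a larger donor minus host value in the parenchyma than in the leptomeninges, where Il1b and Fosb alone of these 5 were higher in donor cells by the test. Icam1 was the clearest case of the opposite: it was lower in donor than in host microglia and higher in donor than in host leptomeningeal cells (0.49 ± 0.12, adjusted p 0.00134), a difference of 1.49 ± 0.16 (adjusted p 1.44e-10). With the astrocyte and neuron markers as a covariate none of the 48 passed, 11 were at an unadjusted p under 0.05 in edgeR, and the median was -0.544. The values of all genes in that fit are not given here, so the 11 are not read as particular to the members. These markers separate donor microglia from all other libraries, so the fit cannot tell their part from that of the population.

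The third comparison set mutant against control chimeras in each sorted population. No member passed in donor microglia, host microglia, donor leptomeningeal cells or host leptomeningeal cells by edgeR's quasi-likelihood test, where 0.0892%, 0.0649%, 0.0487% and 0% of all genes passed. At an unadjusted p under 0.05 there were 10, 4, 3 and 5 of the 48, against 10.2%, 3.76%, 4.84% and 5.4% of all genes. DESeq2's Wald test called 4 members in donor microglia, 1 in host microglia and none in the leptomeningeal populations. The share of all genes that DESeq2 called is not given here, so these counts are not read as particular to the members. The difference of the genotype effect between donor and host microglia passed for none (0.0324% of all genes), with 8 members at an unadjusted p under 0.05 (6.04% of all genes) and none called by DESeq2.

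In donor microglia 38 of the 48 genes had a positive estimate, with a median of 0.155 against 0.00286 for all genes. The members deviated together within groups (median correlation 0.153), so their signs are not separate observations. For 6 members all mutant libraries were above all control libraries and for 1 below (1.46% and 2.07% of all genes). The 48 genes took 0.576% to 0.673% of UMIs in the control and 0.701% to 0.743% in the mutant libraries. Fosb had 58.4, 76.5, 60.7 and 43.4 CPM in control and 89.8, 92.8, 109 and 127 CPM in mutant donor microglia. The mutant libraries were all higher, and the difference was 0.79 ± 0.22 with an adjusted p of 0.178. Il1b had 167, 157, 197 and 173 CPM in control and 341, 324, 214 and 298 CPM in mutant donor microglia, again without overlap (0.78 ± 0.20, adjusted p 0.174). Dusp1 had 163, 186, 174 and 177 CPM against 225, 269.9, 224 and 218 CPM, without overlap (0.43 ± 0.13, adjusted p 0.182). Hspa1b had 305, 313, 469 and 486 CPM against 575, 593, 717 and 646 CPM, without overlap (0.70 ± 0.27, adjusted p 0.393). Nr4a1 had 100.2, 86.6, 144 and 86.7 CPM against 188, 119, 208 and 158 CPM, with overlap (0.70 ± 0.18, adjusted p 0.154). Junb, an AP-1 subunit, ran the other way, with 415, 441, 507 and 435 CPM in control and 343, 380, 354 and 341 CPM in mutant libraries (-0.33 ± 0.11, adjusted p 0.271).

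DESeq2 gave Il1b an adjusted p of 0.00995, Nr4a1 0.018, Fosb 0.0284 and Dusp1 0.049. In edgeR, Dusp1 and Fosb passed without control library 2 (adjusted p 0.0217 and 0.0135), and Nr4a1 passed without control library 3 (0.0181) or without mutant library 2 (0.0405). None of the 14 neutrophil markers passed between the genotypes in donor microglia, yet their share of UMIs reached 1.05% in control libraries and 0.190% in mutant ones, with a median log2 difference of -2.06. Astrocyte and neuron markers had median differences of 0.62 and 0.90, with none passed. The part of these markers in the member values was not tested beyond the covariate fits.

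Junb was also lower in host microglia of mutant chimeras, which are not of the donor genotype. It had 408, 373, 392 and 431 CPM in control and 269, 287, 311 and 274 CPM in mutant host libraries. The libraries did not overlap, and the difference of -0.46 ± 0.11 had an adjusted p of 0.0909 in edgeR, 0.0439 with scaling by library totals, 0.00144 in DESeq2 and 0.00817 in limma's voom. Exons of Junb overlap those of Prdx2 on the other strand, and reads of both cannot be told apart where the strand was not used. The same holds for Jun with Junos, Jund with Gm11175, Csrnp1 with 1700019L13Rik, Dusp1 with Ergic1 and Nfkb2 with Psd. From the other lists, the stress gene Ddit4 (0.87, adjusted p 0.0271) and the early gene Klf2 (0.70, adjusted p 0.0377) were higher in mutant host microglia.

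**Figure D5:**
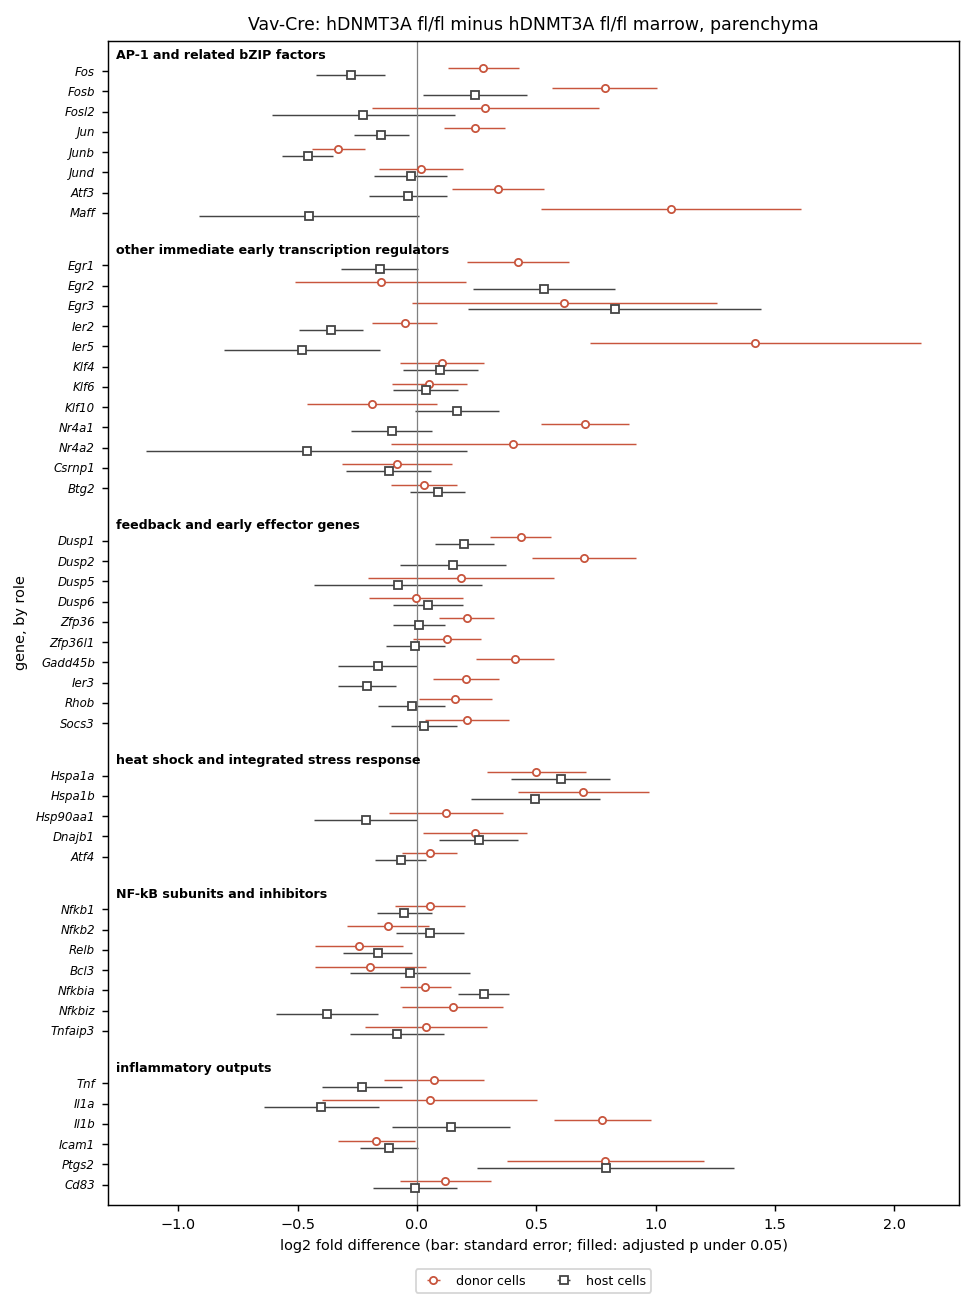
Mutant minus control chimeras for each of the 48 genes by role, as log2 fold change with its standard error, in donor microglia and host microglia; filled points would mark an adjusted p under 0.05, and there are none. In donor microglia 38 of 48 points lie to the right of 0, with a median of 0.155 against 0.00286 for all genes.

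The gene bodies of the members the results turn on lie in mm10, by the GENCODE M21 annotation, at chr12:85473890-85477273 on the plus strand (Fos), chr7:19302696-19310051 on the minus strand (Fosb), chr4:55527143-55532466 on the minus strand (Klf4), chr12:8497661-8500009 on the minus strand (Rhob), chr16:55811375-55838899 on the minus strand (Nfkbiz) and chr2:129364570-129371139 on the minus strand (Il1b). Hspa1a (chr17:34969190-34972156) and Hspa1b (chr17:34956436-34959238) are neighbours on the minus strand.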

How the data were processed

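The deposited table holds raw UMI counts per gene and library, next to normalized values of signal type and log2 values of the authors' own, which were not used. Libraries were made by MARS-seq, which counts UMIs near the 3′ end of polyadenylated RNA, per the labels; build mm10 is named in the submitters' processing notes, whereas neither the aligner nor the strand used in counting is stated. The 48 genes and the other gene and marker lists were chosen with earlier results of these data known. All 28 libraries entered one edgeR 4.0.16 fit (R 4.3.3) with 1 mean for each of 8 groups, TMM scaling and filterByExpr. Genes were tested by the quasi-likelihood test over 10 contrasts, with Benjamini-Hochberg adjustment over 12327 genes and a threshold of 0.05. Values by library were given for members that passed, in order of adjusted p, with preference for libraries that do not overlap; values of some that did not pass were added. At most 3 genes of each other list were named, those of smallest adjusted p. Correlations used log2 CPM with a prior count of 2. Alternatives used DESeq2 1.42.0 and limma 3.58.1 (voom), other scalings and filters, a replicate block, marker covariates, one kind of chimera at a time and each library left out. The edgeR fit was tested on simulated counts of 12327 genes: in the contrast of donor microglia genotypes it recovered 51% of genes changed by 1 and 74% of genes changed by 2 on the log2 scale.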

Additional observations from a re-analysis of the deposited data

Results flagged for a closer look

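In 294 groups of 4 libraries, those of each gene and of the summed share of the 48 genes, 18 (6.12%), all of single genes, held a library that stood apart from the other 3 by Dixon's test, where chance gives about 1 in 20. In donor microglia of control chimeras these were Atf3 in library 2 (104 CPM, others 64.7 to 70.5), Dusp5 in library 2 (5.78, others 11.5 to 12.5), Cd83 in library 3 (167, others 114 to 120) and Btg2 in library 4 (146, others 131 to 134). In donor microglia of mutant chimeras they were Dusp1 in library 2 (269.9, others 218 to 225), Cd83 in library 3 (109, others 147 to 153), Btg2 in library 4 (96.4, others 144 to 152) and Icam1 in library 4 (49.2, others 90.7 to 92.7). In host microglia they were Relb in control library 3 (45.5, others 52.0 to 52.8), Hspa1a in control library 4 (116, others 81.0 to 85.7), Dusp1 in mutant library 1 (83.2, others 98.9 to 102), Ptgs2 in mutant library 3 (3.94, others 1.61 to 2.00) and Il1a in mutant library 4 (15.9, others 51.9 to 57.1). In donor leptomeningeal cells they were Jun (379, others 255 to 273) and Atf3 (419, others 288 to 307) in control library 1, Nfkbiz in control library 2 (129, others 165 to 172), Egr2 in mutant library 2 (69.3, others 40.9 to 45.7) and Fosl2 in mutant library 4 (50.6, others 48.9 to 49.0). No library had more than 2 of the 18.

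For 30 members the donor minus host difference itself differed between the compartments by edgeR's quasi-likelihood test (leptomeninges minus parenchyma, log2). Among AP-1 factors these were Fosb (-1.37), Fos (-1.27), Atf3 (-0.51) and Jund (-0.46). Among the other early regulators they were Nr4a2 (-2.18), Klf4 (-1.14), Ier2 (-1.11), Egr2 (-1.09), Klf6 (-0.70), Btg2 (0.46) and Klf10 (1.01). Among feedback genes they were Gadd45b (-1.18), Dusp1 (-1.06), Dusp5 (-1.03), Ier3 (-1.02), Dusp2 (-0.85), Zfp36 (-0.48) and Zfp36l1 (-0.45). Among stress genes they were Hsp90aa1 (-1.38), Hspa1a (-1.14), Dnajb1 (-0.61) and Atf4 (0.39). Among NF-kB genes they were Nfkbiz (-1.67), Bcl3 (-1.04), Nfkbia (-0.41) and Nfkb1 (0.81), and among inflammatory outputs Ptgs2 (-1.73), Il1b (-1.65), Cd83 (-0.67) and Icam1 (1.49).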

How the results depend on the processing

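Counts of members that passed kept within 1.5 times of the values in the report under every alternative but these. In donor microglia the genotype count went from 0 to 4 with DESeq2's Wald test and to 1 with the neutrophil covariate, and in host microglia to 1 with library totals, DESeq2 or voom. Donor minus host went from 42 to 6 in the parenchyma with the astrocyte and neuron covariate, and from 27 to 3 in the leptomeninges with the neutrophil covariate, 13 in control chimeras alone and 17 in mutant chimeras alone. With the astrocyte and neuron covariate the donor compartment count went from 41 to 10 and the difference between compartments from 30 to 0. Leaving out each library gave 0 to 2 members for the genotype effect in donor microglia, 0 to 0 for the other genotype contrasts, 40 to 42 and 18 to 27 for donor minus host in parenchyma and leptomeninges, 43 to 45 and 41 to 44 for the compartments in host and donor cells, and 26 to 32 for the difference between compartments.

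Same-numbered libraries of different groups correlated between -0.182 and 0.125 in their deviations from the group means. Such values cannot show whether equal numbers mark the same animal, which the labels do not state, and the main fit used no pairing. With the replicate block 0 members passed in each genotype contrast, 42 and 24 for donor minus host in parenchyma and leptomeninges, 44 and 42 for the compartments in host and donor cells, and 31 for the difference between compartments.

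Some estimates changed sign. With the astrocyte and neuron covariate these were Atf3 (-1.22), Maff (-1.67), Dusp6 (1.14) and Nfkb1 (0.14) for donor minus host in the parenchyma, Ptgs2 (-0.78) for the donor compartments, and Fosb (0.028), Jund (0.15), Atf3 (1.56), Klf10 (-0.71), Hspa1a (0.14), Dnajb1 (0.21) and Nfkb1 (-0.049) for the difference between compartments, none passing. With the neutrophil covariate they were Fosl2 (-0.88), Zfp36l1 (0.060), Hspa1a (-0.22) and Il1a (0.087) for donor minus host in the leptomeninges and Dnajb1 (-0.16) for the donor compartments. With library totals they were Dusp1 (-0.013) for the donor compartments and Nfkbiz (-0.052) for donor minus host in the leptomeninges. The cause was not tested. No call of the host compartment comparison changed sign under the alternatives run. Scaling by library totals moved the median of all genes from 0.0371 to -0.137 and from 0.0148 to -0.217 for donor minus host in parenchyma and leptomeninges, and from 0.078 to -0.100 and from -0.0328 to -0.276 for the compartments in host and donor cells. Depth limits some members, among them Nr4a2, Egr3 and Ptgs2, with 22, 20 and 29 UMIs in all host microglia libraries. In all donor microglia libraries Ier5 had 20, Egr3 23, Maff 48 and Fosl2 80 UMIs, and Maff and Fosl2 were each at 0 in 1 library. Maff had 28 UMIs in all host leptomeningeal libraries.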

Other observations

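Within groups, the deviations of libraries from their group means (log2 CPM, 28 libraries) were shared by the 48 genes more than by genes at large: the median correlation over 1128 pairs of members was 0.153, against 0.000358 over all pairs of tested genes. The genes at large were not matched to the members in expression level, and low counts add noise that lowers correlations. The libraries share depth and preparation, and the values are a description. AP-1 factors (median 0.324) and feedback genes (0.294) moved together most within a role, and NF-kB subunits and inhibitors hardly at all (0.0341). The pairs with the highest correlation were Hspa1a with Hspa1b (0.856), Il1a with Cd83 (0.822), Zfp36 with Ier3 (0.814) and Hspa1a with Dnajb1 (0.773). Donor leptomeningeal library 1 of the control chimeras and library 4 of the mutant chimeras had mean deviations of 0.18 and 0.176 over the 48 genes, and their neutrophil markers deviated by -0.366 and 0.11. Across all 28 libraries the deviation of the neutrophil markers correlated with that of Fosl2 (0.735), Dnajb1 (0.513), Hspa1a (0.484) and Nr4a1 (0.452), and with that of Klf4 in the opposite direction (-0.426). The control donor microglia libraries weigh heavily here. They held the lowest and highest deviations of the neutrophil markers (-1.58 and 1.08), Fosl2 (-2.64 and 1.85) and Dnajb1 (-0.668 and 0.688). Fosl2 had only 0, 3, 16 and 10 UMIs in them.

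Of the gene groups outside the set, MAP kinase and chaperone genes are given here by origin and compartment, beside the shares of all genes (33.1% higher and 27.3% lower in donor microglia, 16.9% and 13.3% in donor leptomeningeal cells, and 19.1% and 23.2% for the difference between compartments). Of 27 MAP kinase and serum response factor genes, 2 were higher and 10 lower in donor than in host microglia (median -0.114), with Map2k1, the MEK1 kinase, at -1.54, while 5 were higher and none lower in donor leptomeningeal cells (median 0.237). The difference between compartments passed upwards for 13 and downwards for 1 of them. Of 24 other chaperone genes 11 were higher and 4 lower in donor microglia, with the small heat shock protein gene Cryab, which astrocytes and oligodendrocytes also express, at 4.66, while none were higher and 3 lower in donor leptomeningeal cells. The difference between compartments passed upwards for 1 and downwards for 8 of the chaperone genes.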
